A study of Mus musculus with 8 samples.

Results

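Endothelin-1, nitric oxide, natriuretic peptides and angiotensin II set the tone of blood vessels, and the genes described here encode ligands, receptors and enzymes of these systems. The set has 10 genes, chosen by name: Edn1, Ece1, Ednra, Ednrb, Nos3, Gucy1a1, Npr1, Npr3, Ace and Agtr1a. All probes whose platform gene symbol is one of these were taken, which gave 17 of the 25697 probes on the array and covered 9 of the 10 genes, among 16593 gene symbols in all. Ednra, a receptor for endothelin on smooth muscle, was not analysed here, since none of the probes carried its symbol.

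Total RNA came from the whole lung of NOD/shi mice, which belong to the inbred non-obese diabetic strain and were 6 to 12 weeks old. The controls are 3 mice that had no ventilation, and the other group is 5 ventilated mice. No other treatment of either group was given in the sources used here, nor was the ventilation protocol. The comparison asks how mechanical ventilation, studied as a cause of lung injury, is reflected in the lung transcriptome. The labels give each lung a number of its own and do not say how the animals were housed or processed, so p-values measure the spread between these lungs.

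Endothelin-1 is made by endothelial and epithelial cells as a larger precursor and is released by the endothelin converting enzyme; it constricts vessels through receptor A and, on endothelium, triggers nitric oxide release and is cleared through receptor B. Nitric oxide from the endothelial synthase diffuses to smooth muscle, where it activates soluble guanylate cyclase and relaxes the cell through cyclic GMP. Angiotensin converting enzyme, abundant on lung capillary endothelium, produces angiotensin II, which constricts vessels through its type 1 receptor. Natriuretic peptides relax vessels through receptor Npr1, itself a guanylate cyclase, and are removed by the clearance receptor Npr3.

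Mean probe intensity ranged from 54.3 to 332 among control arrays and from 87.4 to 321 among ventilated ones, with control 2 lowest and ventilated 4 next. Probes detected, that is with a detection p under 0.05 against background, numbered 8080 to 14313 on the controls and 9765 to 13924 on the ventilated arrays. Levels below are normalized log2 intensities, which can be compared between arrays for 1 probe but not between probes. Differences are ventilated minus control on the log2 scale, with adjusted p from limma over all 10200 features kept. The number of arrays limits the precision of every value.

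Of the 17 probes, 15 were detected on at least 3 arrays and were kept, which left 8 genes. None of these 8 differed between the groups at an adjusted p under 0.05 in limma, where 2% of all features did (204 of 10200, with 1.26% higher and 0.735% lower after ventilation). At an unadjusted p under 0.05 there were 2 of the 8, Nos3 and Edn1, against 16.2% of all features. The same 2 genes had all 5 ventilated lungs above all 3 controls, as did 6.71% of all features; none of the 8 had the groups apart the other way, against 6.45%. The median log2 difference over the 8 genes was 0.42, against 0.01 over all features, with 6 genes above 0 and 2 below, and 51.2% of all features above 0.

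**Figure D1:**
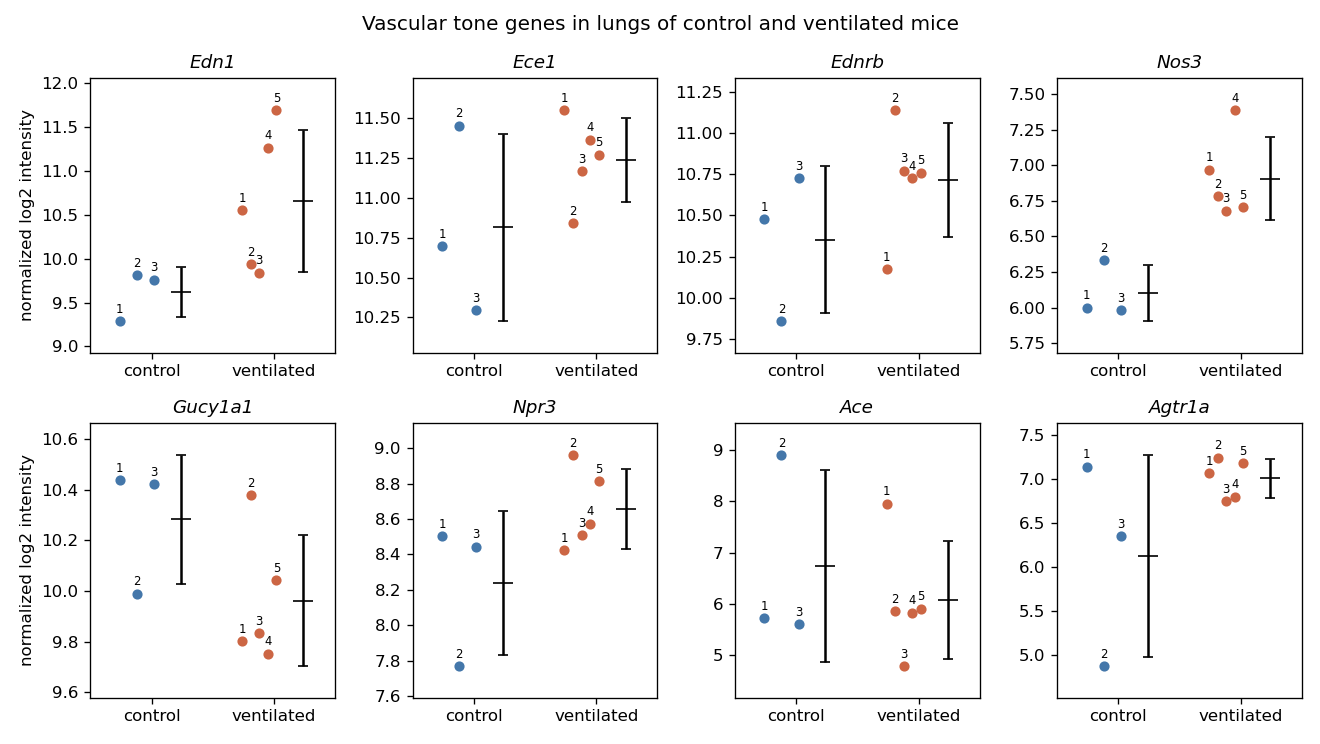
Normalized log2 intensity (vertical axis, a separate range for each gene) of the main probe of 8 genes in control (blue) and ventilated (orange) lungs; numbers are the replicate numbers and black bars show the mean and SD of 3 and 5 lungs. Edn1 and Nos3 show no overlap between the groups, while control 2 lies apart from the other controls for Ace and Agtr1a.

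Edn1, which encodes the endothelin-1 precursor, had the largest difference of the set. Its level (probe ILMN_2737713) was 9.29, 9.81 and 9.76 in controls 1 to 3. It was 10.56, 9.94, 9.84, 11.27 and 11.70 in ventilated lungs 1 to 5. Ventilated 4 and 5 were the highest, and ventilated 2 and 3 lay just above the highest control. The probe was detected on all 8 arrays, at deposited intensities of 123 to 1321 in controls and 536 to 6724 in ventilated lungs. Controls averaged 9.62 ± 0.29 (SD, n = 3), and ventilated lungs 10.66 ± 0.81 (SD, n = 5). The log2 difference was 1.04 ± 0.42 (SE; 95% interval 0.11 to 1.96), a 2.05-fold higher mean that did not pass in limma (adjusted p = 0.256). It was 1.13 without control 2 and 0.78 without ventilated 5, and in no fit that left out an array did it pass.

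Nos3 encodes the endothelial nitric oxide synthase and was read by 3 kept probes. The main probe, ILMN_2788593, stood at 6.00, 6.33 and 5.98 in controls 1 to 3. In ventilated lungs 1 to 5 it stood at 6.97, 6.78, 6.68, 7.39 and 6.71. All 5 ventilated lungs lay above the controls, ventilated 4 highest. This is a log2 difference of 0.80 ± 0.23 (SE; 95% interval 0.28 to 1.32), or 1.74-fold, with the smallest p of the set (adjusted p = 0.118 in limma). With brightness as a covariate it was 0.78 and passed (adjusted p = 0.0465), as it did with array weights, at 0.82 (adjusted p = 0.0177). These settings called 569 and 838 of all features, against 204 without them, and array weights gave control 2 a weight of 0.178. In no other setting did Nos3 pass in limma. Its log2 difference was 0.40 as the mean of its probes (adjusted p = 0.528) and 0.38 with the deposited value table.

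The other probes of Nos3 differed less. ILMN_2713835 read 6.00, 7.34 and 6.04 in controls 1 to 3 and between 6.33 and 6.88 in ventilated lungs, a log2 difference of 0.12 ± 0.32. ILMN_2729153 read 5.61, 7.13 and 5.64 in the controls and between 6.03 and 6.83 after ventilation, a log2 difference of 0.28 ± 0.36. On both probes control 2 was above all ventilated lungs, whereas controls 1 and 3 were below all of them. Without control 2 the log2 differences of the 3 probes were 0.92, 0.56 and 0.78, with adjusted p of 0.101, 0.284 and 0.162 in limma over all kept probes. The positions of the probes in the transcripts are not given in the files used here. All 3 were detected on all 8 arrays, and the highest detection p was 0.0125, on control 2 for the main probe.

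Ece1, the endothelin converting enzyme, had log2 levels on its main probe (ILMN_2745993) of 10.70, 11.45 and 10.30 in controls 1 to 3. The ventilated lungs 1 to 5 had levels of 11.55, 10.84, 11.17, 11.36 and 11.27. Control 2 lay among the ventilated lungs, and the groups overlapped. Ece1 thus had a log2 difference of 0.42 ± 0.29 (SE; 95% interval −0.21 to 1.06; adjusted p = 0.517 in limma). It was 0.74 without control 2 and 0.16 without control 3. The second probe (ILMN_1255063) had a log2 difference of −0.06 ± 0.42, and of 0.57 without control 2. Both probes were detected on all 8 arrays.

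Ednrb encodes the endothelin B receptor, in the mouse lung a marker of the gas-exchange capillary cells called aerocytes. Its main probe (ILMN_2589640) read 10.48, 9.86 and 10.72 in controls 1 to 3, and 10.17, 11.14, 10.77, 10.72 and 10.76 in ventilated lungs 1 to 5. The lowest values were those of control 2 and ventilated 1, and the groups overlapped. For this probe the log2 difference was 0.36 ± 0.28 (SE; 95% interval −0.26 to 0.98; adjusted p = 0.579 in limma), and 0.11 without control 2.

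A second Ednrb probe (ILMN_2917471) ranged from 4.32 in control 2, where it was not detected (its detection p was 0.561), to 8.78 in ventilated 5. Its log2 difference was 0.95 ± 0.77, and −0.20 without control 2. Probe ILMN_2717765 was detected on 1 of 8 arrays, ventilated 5 (at a detection p of 0.0251), and was not kept. The 4 other aerocyte markers measured, among them Emp2 and Car4, all had log2 differences below 0, with a median of −0.59 and none past the threshold. Their summed linear level was 4889 to 5364 in controls and 3137 to 4851 in ventilated lungs. Emp2, the brightest of them, weighed most in this sum, and its groups overlapped (adjusted p = 0.568 in limma). In whole lung, fewer cells of a type and less RNA per cell cannot be told apart.

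Gucy1a1 encodes the alpha 1 subunit of soluble guanylate cyclase, the nitric oxide receptor of smooth muscle. Its main probe (ILMN_2591425) stood at 10.44, 9.99 and 10.42 in controls 1 to 3. Ventilated lungs 1 to 5 stood at 9.80, 10.38, 9.83, 9.75 and 10.04. Of the ventilated lungs, 3 lay below all controls, and ventilated 2 and 5 did not. Gucy1a1 had a log2 difference of −0.32 ± 0.23 (SE; 95% interval −0.83 to 0.19; adjusted p = 0.548 in limma). Dimmer probes gave 0.24 ± 0.25 (ILMN_1228564) and −0.01 ± 0.38 (ILMN_1241211), so the 3 probes did not share a direction.

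Npr3, the natriuretic peptide clearance receptor, read 8.50, 7.77 and 8.44 in controls 1 to 3 on its single probe (ILMN_3127391). It read 8.42, 8.96, 8.51, 8.57 and 8.81 in ventilated lungs 1 to 5. All ventilated lungs but the first lay above the controls. The log2 difference was 0.42 ± 0.25 (SE; 95% interval −0.13 to 0.96; adjusted p = 0.448 in limma), and 0.18 without control 2. Npr1, the guanylate cyclase receptor of atrial natriuretic peptide, had 1 probe (ILMN_2746305), detected on ventilated 1 only (at a detection p of 0.00125). Its deposited intensities were 59.9, 38.8 and 55.1 in controls, with detection p of 0.089, 0.465 and 0.0501, and 39.6 to 61.9 in ventilated lungs. No level or difference was drawn from it.

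Ace, the angiotensin converting enzyme, had the widest spread among the main probes. Its main probe (ILMN_2613682) stood at 5.72, 8.91 and 5.60 in controls 1 to 3. The ventilated lungs 1 to 5 had 7.95, 5.86, 4.79, 5.83 and 5.90. Control 2 and ventilated 1 stood at least 2 log2 units above the rest, while ventilated 3 was lowest and was not detected (at a detection p of 0.0614). The second probe (ILMN_2613683) gave the same picture, at 8.94 in control 2, 7.78 in ventilated 1 and between 5.07 and 5.99 elsewhere. The log2 differences were −0.68 ± 0.81 (SE; 95% interval −2.47 to 1.12; adjusted p = 0.737 in limma) and −0.69 ± 0.81. Without control 2 both changed sign, to 0.40 and 0.45.

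Agtr1a encodes the type 1 receptor for angiotensin II, found on smooth muscle and other mural cells. Its single probe (ILMN_2972521) read 7.14, 4.87 and 6.35 in controls 1 to 3, and control 2 was not above background (at a detection p of 0.168). It read 7.06, 7.24, 6.75, 6.80 and 7.18 in ventilated lungs 1 to 5, a narrower range than that of the controls. Control 1 lay among the ventilated lungs. The log2 difference was 0.88 ± 0.42 (SE; 95% interval −0.05 to 1.82; adjusted p = 0.336 in limma), and 0.26 without control 2.

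**Figure D2:**
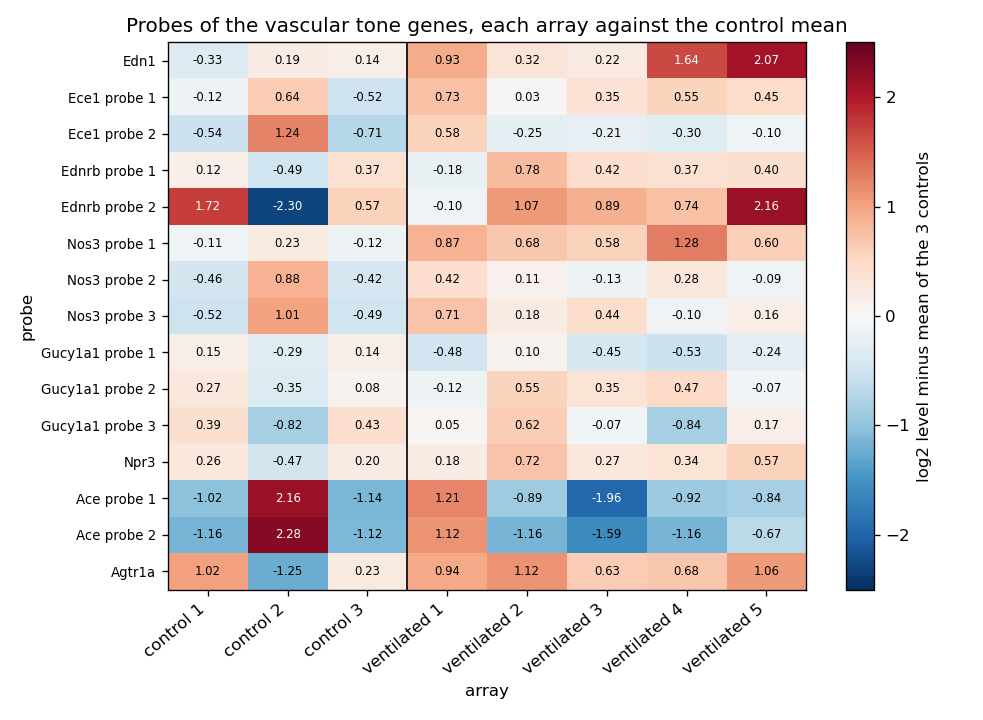
Log2 level of each of the 15 kept probes (rows) on each array (columns) minus the mean of the 3 controls; red is higher and blue lower, and the line divides controls from ventilated lungs. Control 2 holds the extreme control value of every row, above the other controls for Edn1, Ece1, Nos3 and Ace and below them for Ednrb, Gucy1a1, Npr3 and Agtr1a.

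Control 2, the dimmest array, set much of the spread among the controls. On 8 of the 15 kept probes it was above both other controls, and on the other 7 it was below both. The 8 were the probes of Edn1, Ece1, Nos3 and Ace, and the 7 those of Ednrb, Gucy1a1, Npr3 and Agtr1a. For Edn1 control 2 (9.81) was close to control 3 (9.76), and control 1 (9.29) lay apart. Over all features control 2 was above both other controls for 34.9% and below both for 52.2%. The part of array brightness in these values was not tested apart from the alternatives with brightness in the model or without the dim arrays. Within the brighter arrays alone (controls 1 and 3, ventilated 2 and 5) the log2 differences were 1.29 for Edn1, 0.76 for Nos3, 0.56 for Ece1, 0.46 for Agtr1a and 0.22 for Ace. They were 0.41 for Npr3, 0.35 for Ednrb and −0.22 for Gucy1a1, and none of the 8 genes passed in limma.

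**Figure D3:**
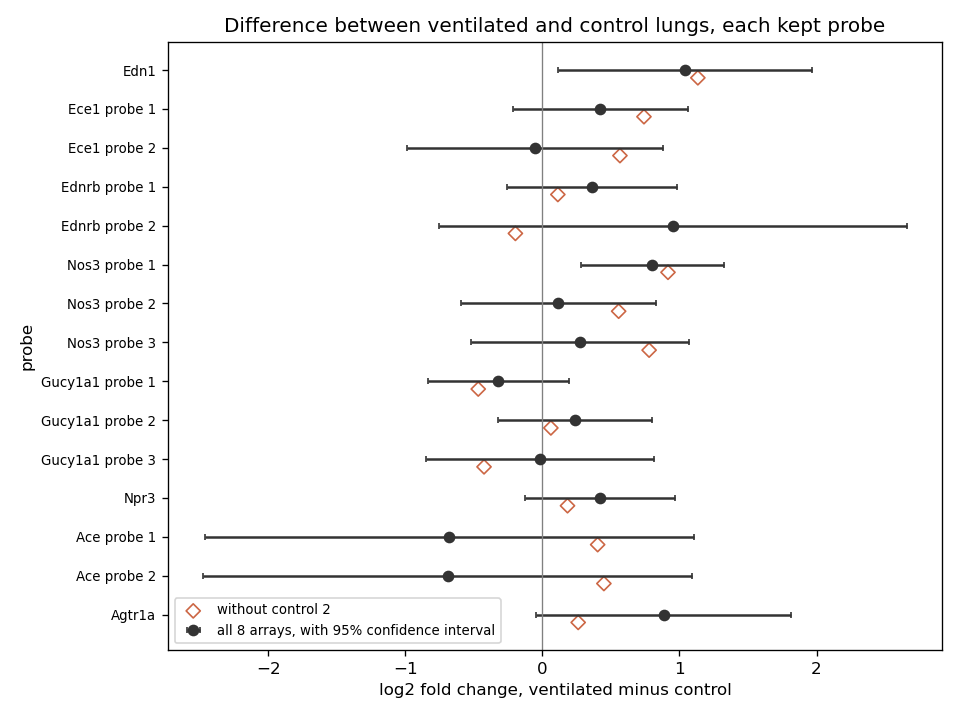
Log2 fold change, ventilated minus control (horizontal axis), of each of the 15 kept probes from all 8 arrays with 95% intervals (black), and without control 2 (orange diamonds). The intervals of Edn1 and of the first Nos3 probe lie above 0 before adjustment, and both probes of Ace move across 0 when control 2 is left out.

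Markers of the cells that carry these genes were read beside them. The lung was represented by Sftpc, Sftpb and Scgb1a1, surfactant and club cell products that were detected on all 8 arrays. Of 10 endothelial markers none passed in limma and 1 reached an unadjusted p under 0.05 (16.2% of all features did), with a median log2 difference of −0.14. Their summed linear level was 19680 to 22140 in controls and 16330 to 19950 in ventilated lungs. Of 5 general capillary markers 4 were above 0, with a median of 0.33, none passing in limma and 1 at an unadjusted p under 0.05. That 1 was Gpihbp1, which anchors lipoprotein lipase on capillaries and is named because its value was seen. Its log2 difference was 0.81 ± 0.20 (adjusted p = 0.0691 in limma), with all ventilated lungs above all controls, as for 6.71% of all features. Over the 5 markers, the median deviation from the control mean was 0.30 in control 1, within the range of the ventilated lungs (0.08 to 0.57). The part of control 2 in the median of 0.33 was not tested. The summed level of the 5 was 4379 to 7925 in controls and 5734 to 8206 in ventilated lungs, and its part in the levels of Nos3 was not tested. Of 8 smooth muscle markers, among them Acta2, none passed (none also at an unadjusted p under 0.05), with a median of −0.11. The same held for 6 pericyte markers, with a median of −0.13. Of 6 arterial endothelial markers 4 were above 0, with a median of 0.18, and 1 passed and was lower, beside 0.735% of all features. It was the connexin gene Gja5 (log2 difference −1.81 ± 0.21, adjusted p = 0.00301 in limma), which is named because its value was seen. Neutrophil markers moved with the groups. Of 8 measured, 4 passed and were higher, beside 1.26% of all features, and are named because their values were seen. They were S100a8, S100a9 and Retnlg (log2 differences 4.24, 4.58 and 5.18) and Camp. Camp was detected in no control and was kept through ventilated lungs alone, so its p does not measure a spread among control lungs. Set against the lowest detected signal of the control arrays, its mean was at least 4.01-fold higher, a bound without sampling error. The summed level of the 8 was 659 to 1007 in controls and 6985 to 16920 in ventilated lungs. The part of neutrophil RNA in the levels of Edn1 and Nos3 was not tested.

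Of 76 other genes of these pathways, 45 were measured, and 1 passed in limma, beside 2% of all features. It was Agt, which encodes angiotensinogen, the precursor from which renin and Ace release angiotensin II. Its probe (ILMN_1227398) was not detected in any control, where the normalized level was 4.30, 4.20 and 4.26 and the detection p 0.407, 0.897 and 0.613. It was detected in all 5 ventilated lungs, at 5.65, 5.09, 5.69, 6.40 and 5.64. All ventilated lungs were above all controls, ventilated 4 highest and ventilated 2 lowest. Agt was kept through its detection in ventilated lungs alone, and its control spread (SD 0.05) is that of background signal. Its p therefore does not measure a spread of Agt levels among control lungs. The measured means were 4.25 and 5.70 (adjusted p = 0.0306 in limma). Set against the lowest signal that counted as detected on the control arrays, the mean was at least 1.68-fold higher. Such a bound takes, on each control array, the lowest normalized level among detected probes, and it holds no sampling error. The call was kept without control 2, ventilated 2 or ventilated 4 and was lost when any other array was left out (adjusted p 0.0632 to 0.0994). It was also lost with a common median in place of quantile normalization (adjusted p = 0.9997), with the deposited value table (adjusted p = 0.899) and with the replicate number as a block (adjusted p = 0.385). Without background correction the call was kept, and the fitted log2 difference was 0.81 in place of 1.44.

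The 250 bases before the start of Agt and of Edn1 are shown from RefSeq promoters of mouse build GRCm38.p6. Agt is the pathway gene past the threshold, and Edn1 the gene of the set with the largest difference. The Agt window is chr8:124569707-124569956 on the minus strand and the Edn1 window chr13:42301226-42301475 on the plus strand. Capitals mark matches to motifs searched on both strands, namely AP-1 (TGANTCA), the hypoxia response core (ACGTG), STAT (TTCNNNGAA), the TATA box (TATAAA) and, by name, the NF-kB site and the steroid receptor palindrome.
Agt: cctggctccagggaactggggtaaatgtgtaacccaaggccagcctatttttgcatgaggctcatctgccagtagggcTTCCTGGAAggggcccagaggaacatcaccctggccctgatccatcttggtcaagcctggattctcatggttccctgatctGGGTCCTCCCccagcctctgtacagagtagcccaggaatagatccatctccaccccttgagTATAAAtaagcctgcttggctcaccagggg
Edn1: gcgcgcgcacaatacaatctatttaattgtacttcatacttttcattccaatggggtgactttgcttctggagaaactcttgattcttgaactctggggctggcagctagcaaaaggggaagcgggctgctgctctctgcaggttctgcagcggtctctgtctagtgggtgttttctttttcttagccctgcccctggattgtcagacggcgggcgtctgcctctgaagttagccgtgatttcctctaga

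The Agt window held 1 match each to STAT, the TATA box and NF-kB, with the NF-kB match between the others, and the Edn1 window held none. Among all 32851 promoter windows of this length, 7.02% held the STAT motif, 12.4% the TATA box and 17.6% the NF-kB motif. AP-1 was found in 6.75%, the hypoxia core in 16.6% and the steroid receptor motif in 0.387%. Of the 10 genes of the set, 8 matched the promoter table. A match of letters describes the window and shows no binding.

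**Figure D4:**
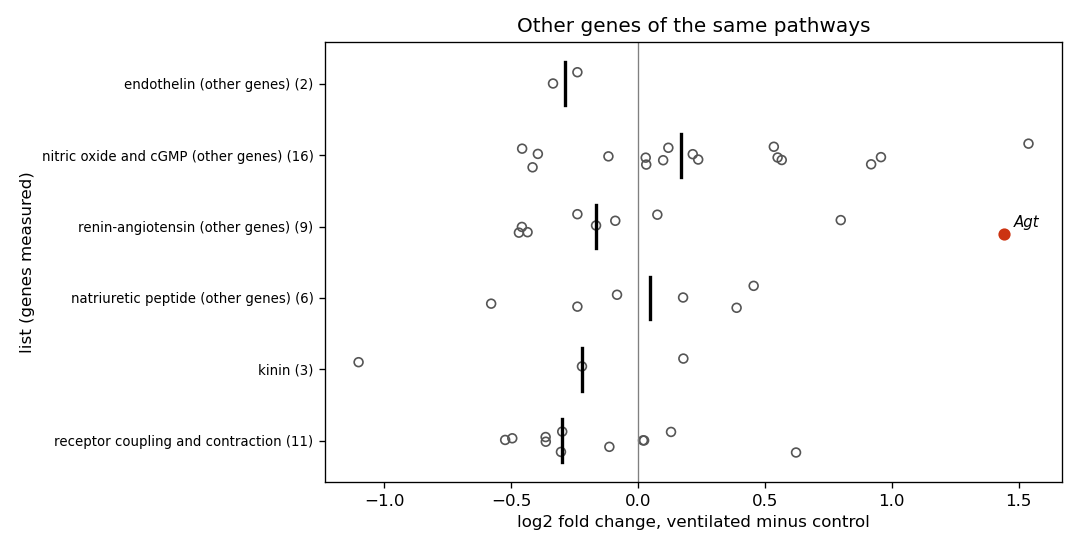
Log2 fold change, ventilated minus control (horizontal axis), of other genes of the same pathways by list, with the number of genes measured in brackets; points are genes, black bars are list medians and the filled red point is the gene past the threshold. Agt is the red point. It was detected in no control, so its place at 1.44 is a fitted difference against background. Set against the lowest detected signal of the control arrays its mean was at least 1.68-fold higher, a bound without sampling error. The medians of the 6 lists lie between −0.30 and 0.17.

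The nitric oxide and cyclic GMP list had 16 of 22 genes measured, 12 above 0 and 4 below, against 51.2% of all features above 0. None was past the threshold in limma. At an unadjusted p under 0.05 there were 4, against 16.2% of all features and 8 of the 45 pathway genes measured. The median log2 difference of the list was 0.17. The sign of this median depended on the arrays used. It was −0.04 without control 2 and −0.01 without the dimmest array of each group. In the brighter arrays alone, which also leave out control 2, the median was 0.19, and with array weights it was 0.02. The smallest p of the list was that of Gch1, the first enzyme in the synthesis of tetrahydrobiopterin, the cofactor of nitric oxide synthases. Gch1 read 7.51, 7.05 and 7.93 in controls and 7.89, 8.62, 8.55, 8.70 and 8.32 in ventilated lungs. Ventilated 1 alone lay within the range of the controls. The log2 difference was 0.92 ± 0.27 (adjusted p = 0.125 in limma), against −0.39 ± 0.38 on a dimmer second probe, detected in 2 controls and 2 ventilated lungs. Arg2, an arginase that competes for arginine, was named after its values were seen and had a log2 difference of 1.54 ± 0.47 (adjusted p = 0.135 in limma). Its probe was detected in 2 controls and 4 ventilated lungs, and the groups overlapped. The inducible and neuronal synthases Nos2 and Nos1, named for their detection, were detected on none of the 8 arrays.

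The renin-angiotensin list had 9 of 18 genes measured, with Agt past the threshold and a median log2 difference of −0.17. Agtr1b and Agtr2, other angiotensin receptors, and Mas1, the receptor for angiotensin 1-7, were detected on no array. The endothelin list had 2 of 5 genes measured. Neither passed in limma, none was at an unadjusted p under 0.05, and the smaller p was that of Ece2, a second converting enzyme (log2 difference −0.34 ± 0.30). Ece2 was detected in only 2 controls and 1 ventilated lung. The ligand genes Edn2 and Edn3 were detected on no array. Of 6 measured natriuretic peptide genes none passed (none at an unadjusted p under 0.05), and the smallest p was that of Ide, a protease that degrades these peptides and insulin (−0.58 ± 0.35, adjusted p = 0.465).

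Of 3 measured kinin genes none passed and 1 reached an unadjusted p under 0.05, against 16.2% of all features. It was Kng1, which encodes kininogen, the precursor of bradykinin, a peptide degraded by Ace. Kng1 stood at 6.66, 5.88 and 5.70 in controls and at 4.66, 5.19, 5.25, 5.14 and 4.66 in ventilated lungs, all below the controls. Its probe was not detected in ventilated 1 and 4 (detection p of 0.1 and 0.0627). The log2 difference was −1.10 ± 0.28 (adjusted p = 0.0775 in limma), and −0.32 ± 0.22 on a second probe, detected in 2 controls and 1 ventilated lung. Of 11 genes of receptor coupling and contraction none passed and 1 reached an unadjusted p under 0.05 (16.2% of all features did), with a median log2 difference of −0.30. That median was −0.06 without control 2 and −0.03 in the brighter arrays. The gene was Rgs4, which switches off signals of receptors coupled to Gq, as endothelin and angiotensin receptors are; its log2 difference was 0.62 ± 0.25 (adjusted p = 0.259 in limma), and its groups did not overlap.

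The levels of Nos3 and Edn1 over the 8 arrays were also compared with those of all named features, by the root mean square difference after each feature was centred on its own mean. Nearest to Nos3 were Msi2, an RNA-binding protein gene, at 0.14, Ctdp1, a phosphatase gene, at 0.15, and Il18rap, a subunit of the interleukin-18 receptor, at 0.15. The control mean of Il18rap was 4.30, close to the background level that Agt had in the controls (4.25). Nearest to Edn1 were Hilpda, a lipid droplet protein gene, at 0.26, Bach1, a transcriptional repressor, at 0.29, and Ier3, an immediate early gene, at 0.34. None of these 6 passed the threshold in limma; their log2 differences lay between 0.50 and 1.13 and their adjusted p between 0.0709 and 0.548.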

How the data were processed

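Total RNA of whole lungs was labelled with biotin by an Ambion MessageAmp kit and hybridised to Illumina arrays, per the labels. Per the file headers, the deposited file holds a non-normalized intensity and a detection p-value for each probe and array. They also deposited a value table in which each array's intensity is multiplied by 1 factor, as set against the first file. No source used here names the scanner.

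In R 4.3.3 with limma 3.58.1, neqc corrected background from the detection p-values (offset 16), applied quantile normalization and the log2 scale. A probe was kept if detected (p under 0.05) on 3 or more arrays, which left 13374, and the probe with the highest mean stood for a gene (10200 features, 9425 of them named). Groups were compared with lmFit and eBayes, two-sided, with Benjamini-Hochberg adjustment over all features at 0.05. Other probes of a gene come from the same fit on all kept probes. Intervals are 95%. The fit was tested on simulated data. The members, gene lists, motifs and alternatives were chosen with earlier results of these data known. Named genes are all members, each pathway list's calls or smallest p, up to 2 markers of a list, and 3 nearest features for 2 members; exceptions are said to be so where they stand. Python 3.11.15 and matplotlib 3.10.9 made the figures. Platform symbols were checked against RefSeq, which changed 0 of them. Alternatives covered background correction, normalization, deposited values, detection, probe choice, variance model, array weights, replicate number, brightness, threshold and each array left out.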

Additional observations from a re-analysis of the deposited data

Results flagged for a closer look

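Among the 5 ventilated lungs, 2 of 21 probes examined had 1 lung far from the others by Dixon's test at the 95% level (critical value 0.71). Chance alone gives about 1 such probe in 20. The second probe of Ece1 (ILMN_1255063) stood at 7.55 in ventilated 1, with the next lung at 6.86. Rgs4 (ILMN_1244081) stood at 8.66 in ventilated 4, with the next lung at 7.93.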

How the results depend on the processing

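Of the 8 genes of the set, 0 passed in 15 of 17 alternative settings and in all 8 fits that left out an array, and 1, Nos3, passed with array weights and with brightness as a covariate. The log2 difference of 7 of the 8 kept its sign in every setting run. A change of the variance model or threshold alone cannot alter a difference, and a stricter threshold cannot add a call. Other probes of the same genes did not always share that sign, as given above. The log2 difference of Ace turned to 0.22 in the brighter arrays and 0.46 without the dimmest array of each group. It lay between −1.25 and 0.40 with 1 array left out. Without ventilated 4 the brightest Nos3 probe was another one, which gave 0.08; the first probe gave 0.68. All features called numbered 0 with a common median (limma; 116 at an unadjusted p under 0.05), 6 with the deposited value table, 838 with array weights, 315 with a brightness block, 569 with brightness as a covariate and 8 in the brighter arrays. They numbered 123 without the dimmest array of each group, 53 at a threshold of 0.01, 412 at 0.1, and 63 to 169 with 1 array left out, against 204. Of the calls 129 were higher and 75 lower, against 6 and 0 with the deposited table and 109 and 96 over probes detected on all arrays. A common median moved the median of all features from 0.01 to −0.11 and left the signs of the members as they were. Of the pathway genes 1 passed; the number was 0 with a common median, the deposited table, the brighter arrays, a threshold of 0.01 or detection on all arrays (1, 1, 10, 8 and 4 at an unadjusted p under 0.05). It was 4 with array weights, 3 with brightness as a covariate, 2 at a threshold of 0.1, and 0 to 2 with 1 array left out. The call of Agt was lost with a common median (log2 difference 1.10) and with the deposited table (0.82); the cause was not tested. Agt could not be fitted among probes detected on all arrays or on 3 of the brighter arrays. With the replicate number as a block, 2 features, 0 pathway genes (4 at an unadjusted p under 0.05) and 0 of the set passed. The log2 difference of Edn1 was then 0.49. The labels do not say that the numbers pair lungs. Deviations of lungs with the same number correlated at −0.34, −0.36 and 0.36 across features. These values cannot show whether such lungs were processed together, as the arrays also differed in brightness.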

Other observations

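Nppa, which encodes atrial natriuretic peptide and is made in atrial heart muscle, varied widely within both groups, and was chosen after its values were seen. It stood at 11.79, 4.85 and 4.73 in controls 1 to 3 and at 6.76, 5.70, 7.72, 10.54 and 6.84 in ventilated lungs 1 to 5 (log2 difference 0.39 ± 1.54, adjusted p = 0.927 in limma). Control 1 and ventilated 4 also had the highest cardiac muscle markers, with median deviations from the control mean of 0.80 and 1.12 over 4 genes, against at most 0.34 in the other lungs. The part of heart tissue in the Nppa level was not tested.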
